A study of Drosophila melanogaster with 14 samples.

Results

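The miRNA miR-8 was followed through embryonic development of the fruit fly Drosophila melanogaster in 14 small RNA libraries, 2 for each of 7 labelled stages of whole embryos. Its members were the rows of the count table named dme-miR-8-3p and dme-miR-8-5p, the 2 arms of its hairpin, out of 466 arms listed. The labels give no genotype, strain or treatment, and place the stages at 160, 300, 530, 645, 930, 1160 and 1300 min without saying from what point. Whether replicate libraries were made from different batches of embryos is not stated, and p-values therefore reflect the spread of these libraries, which could be technical.

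miR-8 is the fly member of the miR-200 family, a conserved group that in vertebrates keeps epithelial cells in their epithelial state by repressing ZEB transcription factors. In flies it acts in the fat body, where it represses u-shaped and so promotes insulin signalling and body growth. It also dampens Wingless signalling, and in neurons and muscle it limits atrophin and the actin regulator Enabled. A miRNA hairpin is cut into a duplex, of which 1 strand (the guide) is mostly loaded onto Argonaute and the other (the passenger) is mostly lost. For miR-8 the guide is the 3p arm.

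The hairpin lies on chromosome 2R of the dm6 genome, from 16831432 to 16831518 on the plus strand, 87 bp long. The annotated mature strands inside it run from 16831447 to 16831468 (22 nt, the 5p side) and from 16831484 to 16831506 (23 nt, the 3p side). It is exonic: both annotated transcripts of the noncoding gene lncRNA:CR43650 (16829095 to 16839494, plus strand), whose listed synonyms include pri-mir-8, hold the hairpin within an exon. The nearest other annotated hairpin, mir-990, is 63705 bp away on the opposite strand, so miR-8 is not part of a miRNA cluster here.

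Depth ran from 17462 to 72507 counts per library, and 85 arms were abundant enough to test. miR-286-3p, an arm of the blastoderm miR-309 cluster, took 57.3% to 65.3% of counts in the 6 early libraries (stages 1 to 3) and 9.16% to 22.6% in the 6 late ones (stages 5 to 7). A share of any other arm moves with it. Within their stages, stage 4 replicate 1 and stage 7 replicate 2 had more miR-286-3p than their partners, 37.7% against 30.3% and 22.6% against 9.16%. Both held less miR-8-3p than their partners, and the main fold changes, ratios and shares below are also given without them. The part of miR-286-3p in that difference was not tested. Fold changes use TMM factors, which rescale libraries by the bulk of the arms. In whole embryos a change in the number of cells that make miR-8 and a change in miR-8 per cell cannot be told apart.

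miR-8-3p went from a minor arm to one of the most abundant arms of the embryo, and its largest step between neighbouring stages, 65.2% of the log2 change from stage 1 to stage 7, was from stage 3 to stage 4. In stage 1 it had 68 and 55 counts, 0.191% and 0.218% of the libraries (95% exact binomial intervals 0.148% to 0.242% and 0.164% to 0.283%). In stage 2 it took 0.394% and 0.572%. In stage 3 it took 0.467% and 0.261%, a range that overlaps that of stage 2 and lies above stage 1.

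Stage 4 was higher than every earlier library, but its replicates were apart. Replicate 1 had 1351 counts (3.98%, interval 3.77% to 4.19%) and replicate 2 had 5821 counts (8.81%, interval 8.60% to 9.03%). That 2.21-fold difference was the widest between replicates of any stage for this arm and exceeded counting error. Stage 5 followed with 13.2% and 10.8%. Stage 6 held 14.95% and 14.93%, the closest pair of all stages. Stage 7 held 14.98% and 9.76%, so it spanned the range of stage 5 and reached that of stage 6.

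Ordered by mean share, the stages ran 1, 3, 2, 4, 5, 7 and 6. Stages 3 and 2 overlapped, as did stages 5 and 7 and stages 7 and 6, while stage 4 stood clear of stage 2 below and stage 5 above. On the TMM scale the order was the same, from 3165 ± 48.6 CPM in stage 1 to 111904 ± 762 CPM in stage 6 (SD, n = 2), and stage 6 no longer overlapped stage 7. CPM here is the count scaled to a common library total after TMM correction.

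miR-8-5p, the passenger arm, followed at a far lower level. It had 5 counts and 0 counts in stage 1, and a count of 0 in 25271 allows a share of up to 0.0119% at 3 counts (exact interval up to 0.0146%). It had 10 counts in each library of stage 2, and 10 and 2 in stage 3. In stage 4 it had 43 and 350 counts, 0.127% and 0.530%, again with replicate 1 the lower library. The stage 5 libraries held 0.529% and 0.469%. The stage 6 libraries held 0.309% and 0.427%, and the stage 7 libraries 0.346% and 0.189%. Its highest mean was therefore in stage 5, before that of miR-8-3p. The highest library was stage 4 replicate 2, however, so stages 4 and 5 overlapped, and on the TMM scale stages 5 and 6 overlapped too.

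**Figure D1:**
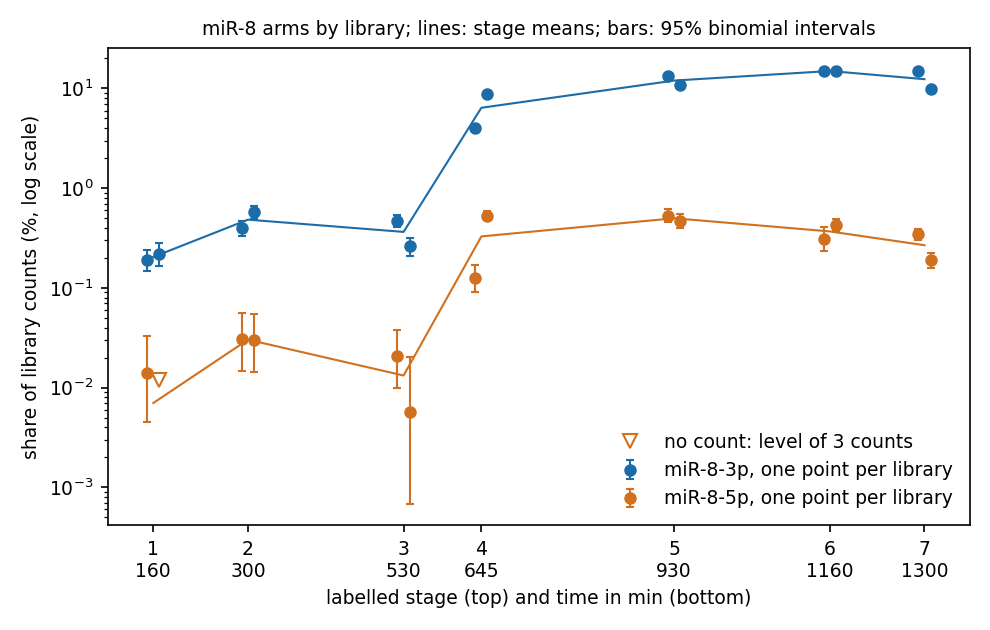
Share of library counts (log axis, in percent) of miR-8-3p and miR-8-5p against the labelled time in min. Each point is a library with its 95% exact binomial interval, lines join stage means, and the open triangle marks the level of 3 counts for the library with no 5p count. All libraries from 645 min on lie above all earlier ones for each arm.

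The first comparison asked whether the arms differed among the 7 stages at all. Both did, by edgeR's quasi-likelihood F-test with Benjamini-Hochberg adjustment over the 85 arms, miR-8-3p at an adjusted p of 1.78e-09 and miR-8-5p at 7.89e-05. Most arms did: 81.2% of those tested passed, so passing alone does not set miR-8 apart.

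Between early and late embryos miR-8-3p rose 19.9-fold, with a log2 fold change of 4.31 ± 0.246 (SE; 95% interval 3.80 to 4.83; adjusted p = 8.92e-12). All 6 late libraries (9.76% to 14.98%, median 14.1%) lay above all 6 early ones (0.191% to 0.572%, median 0.328%). miR-8-5p rose 12.1-fold, by 3.59 ± 0.466 (interval 2.62 to 4.57; adjusted p = 8.26e-07), from a median of 0.0174% to one of 0.387%, again without overlap. Of the arms tested, 50.6% rose in this comparison and 38.8% rose without overlap of libraries.

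Among the 43 rises miR-8-3p was in place 20 by size and miR-8-5p in place 23. By p-value miR-8-3p was in place 3 of 85. The median log2 fold change of all tested arms was 0.86. Leaving out a library also let the filter keep 95 to 100 arms and in 8 of 14 cases moved the library that TMM takes as reference, so each removal was repeated, as an alternative chosen after seeing the data, with the 85 arms and the TMM factors kept. Without stage 4 replicate 1 and stage 7 replicate 2 the values were 3.96 and 3.27, or 4.37 and 3.68 with arms and factors kept, and both arms still passed. Without any 1 library miR-8-3p ran from 3.79 to 4.49 (4.17 to 4.51 with arms and factors kept). miR-8-5p ran from 2.79 without stage 1 replicate 2 to 5.56 without stage 1 replicate 1, which held the only stage 1 counts of that arm. Any fit without stage 1 replicate 1 sets miR-8-5p against a stage 1 of 0 counts. The size of such a value, here and below, is not a measured fold change. From stage 1 to stage 7 miR-8-3p rose by 4.92 ± 0.440 (adjusted p = 1.38e-08) and miR-8-5p by 4.01 ± 0.880 (adjusted p = 0.000536), where 50.6% of arms rose. With stage 4 replicate 1 and stage 7 replicate 2 left out and arms and factors kept, these were 5.10 and 4.28. The stage 7 rise of miR-8-5p did not pass without stage 1 replicate 2 (2.15, adjusted p = 0.0906), but passed with arms and factors kept (3.12, adjusted p = 0.0101), and was 9.72 without stage 1 replicate 1.

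The scaling changed the size of the rise but did not end its call. With library size alone the late against early value of miR-8-3p was 5.30, with miR-286-3p removed from the counts it was 4.64, and with only arms of a mean count of at least 50 it was 3.62. These settings moved the median of all arms by 0.97, 0.30 and -0.73 on the log2 scale. Leaving miR-286-3p out of the total, miR-8-3p took 0.549% to 1.34% of the remaining counts early and 12.6% to 17.1% late.

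The steps between neighbouring stages placed the rise. From stage 3 to stage 4, over 115 min of labelled time, miR-8-3p rose 9.25-fold, by 3.21 ± 0.404 on the log2 scale (interval 2.37 to 4.06; adjusted p = 7.64e-06). That is a rate of 1.67 log2 units per hour. miR-8-5p rose 12.3-fold in the same step, by 3.62 ± 0.788 (interval 1.97 to 5.27; adjusted p = 0.00138). In this step 18.8% of arms rose; miR-8-3p was in place 2 of 85 by p-value, and in place 11 of the 16 rises by size. In 32.9% of arms both stage 4 libraries lay above both of stage 3, as they did for each miR-8 arm.

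The step held with either replicate of stage 4. Without stage 4 replicate 1 the value was 3.55 for miR-8-3p and 4.21 for miR-8-5p. Without replicate 2 it was 2.75 and 2.47 (adjusted p = 2.32e-05 and 0.0326). Without stage 3 replicate 1 it was 4.04 and 5.22, the highest of these values. Without stage 4 replicate 1 and stage 7 replicate 2 together it was 3.54 and 4.21.

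No other step passed for either arm. From stage 1 to stage 2 miR-8-3p had 1.00 ± 0.390 (interval 0.18 to 1.82; adjusted p = 0.0905), where 17.6% of arms passed in either direction. That call depended on the setting, and it passed when libraries were scaled by their totals (1.24, adjusted p = 0.0338) or when the 2 stages were fitted alone (0.96, adjusted p = 0.000403). Without stage 4 replicate 2 or stage 7 replicate 1 it passed as well (1.01 and 1.02, adjusted p = 0.0446 and 0.0277), and neither passed with arms and factors kept. miR-8-5p had 1.65 ± 0.969 in the same step (adjusted p = 0.331). It ran from 0.44 to 7.17 without any 1 library, and passed in none of these fits. From stage 4 to stage 5 miR-8-3p had 0.67 ± 0.369 (interval -0.10 to 1.44; adjusted p = 0.235) and miR-8-5p 0.37 ± 0.641 (adjusted p = 0.703), where 14.1% of arms passed.

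In the remaining steps 0% of arms passed in edgeR's test. Unadjusted p-values under 0.05 numbered 14 from stage 2 to 3, 4 from stage 5 to 6 and 1 from stage 6 to 7, and DESeq2 called 2, 0 and 0 arms. miR-8-3p had -0.19 ± 0.379 from stage 2 to 3 (interval -0.98 to 0.60), 0.45 ± 0.368 from stage 5 to 6 (interval -0.32 to 1.23) and -0.22 ± 0.368 from stage 6 to 7 (interval -0.99 to 0.55). These intervals leave room for changes of up to about the size of the stage 1 to 2 step, and do not show that the level stood still. The values of miR-8-5p in the same steps were -0.92 ± 0.847, -0.29 ± 0.645 and -0.42 ± 0.645.

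**Figure D2:**
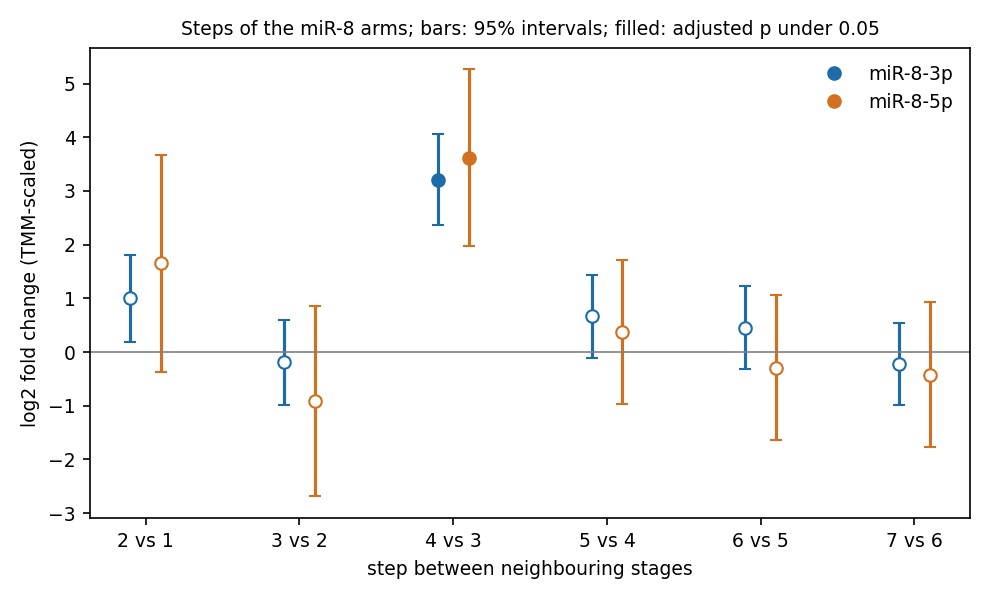
log2 fold change (TMM-scaled) of miR-8-3p and miR-8-5p for each step between neighbouring stages, with 95% intervals from the quasi-likelihood fit over 14 libraries. Filled points passed an adjusted p of 0.05, which only the step from stage 3 to stage 4 did, at 3.21 and 3.62.

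Ranks within each library need no scaling. By count, miR-8-3p was in place 24 and 23 in the stage 1 libraries, 19 and 16 in stage 2, and 17 and 23 in stage 3. It was in place 6 and 2 in stage 4, 3 and 3 in stage 5, 2 and 2 in stage 6, and 2 and 5 in stage 7. No early library ranked it above place 16 and no library from stage 4 on ranked it below place 6. Apart from stage 4 replicate 1 and stage 7 replicate 2, the libraries from stage 4 on had it in place 2 or 3. By mean CPM over the 14 libraries it was in place 4 of all arms, and in place 3 of the 3p arms.

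The company it kept changed accordingly. By stage mean, its neighbours in rank were miR-305-3p (0.211% ± 0.0302) above and miR-281-2-5p (0.163% ± 0.0555) below in stage 1 (SD, n = 2 throughout). In stage 2 they were miR-11-5p (0.488% ± 0.0714) and miR-275-3p (0.457% ± 0.00609), and in stage 3 miR-14-3p (0.380% ± 0.00350) and miR-2a-3p (0.331% ± 0.142). In stages 2 and 3 the differences of means from miR-8-3p were smaller than its own SD (0.126 and 0.146 points). In stage 1 that to miR-305-3p was too, while miR-281-2-5p lay further below than the SD of miR-8-3p (0.0191 points), but not further than its own.

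From stage 4 on the neighbours were the most abundant arms of the embryo. bantam-3p, a growth-promoting and anti-apoptotic miRNA, stood just above it in stage 4 (6.98% ± 1.37), stage 5 (15.3% ± 0.692) and stage 6 (18.1% ± 0.284). In stage 7 the arm just above was miR-286-3p (15.9% ± 9.49), whose libraries span that of miR-8-3p. Just below were miR-315-5p in stage 4 (4.90% ± 1.80), miR-263a-5p in stages 5 (10.1% ± 0.0295) and 7 (10.5% ± 2.11), and miR-10-5p in stage 6 (12.1% ± 3.05).

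miR-8-5p ranked below miR-8-3p in every library and also moved up. Early libraries had 90 to 123 arms with a count, and those from stage 4 on had 132 to 176. miR-8-5p held places 53 to 81 in the early libraries that had a count of it. Place 81, in stage 3 replicate 2, rested on 2 counts, a value that 12 arms shared. From stage 4 on it held places 21 to 36, with stage 4 replicate 1 the lowest of these and stage 5 replicate 1 the highest.

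**Figure D3:**
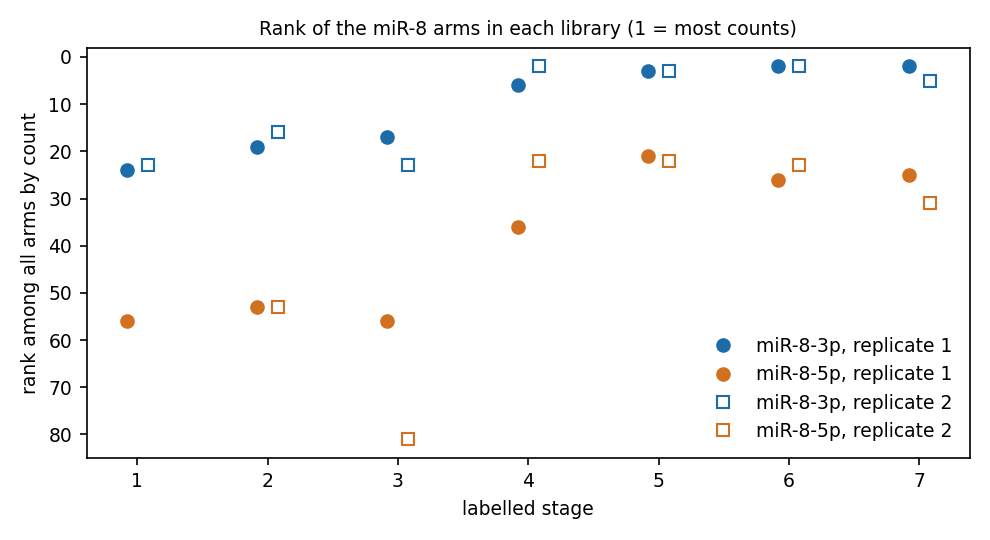
Rank by count among all listed arms (vertical axis, 1 at the top) of miR-8-3p and miR-8-5p in each library, by labelled stage. Filled circles are replicate 1 and open squares replicate 2, and the stage 1 library with no 5p count is left out. miR-8-3p moves from places 16 to 24 before stage 4 to places 2 to 6 from stage 4 on.

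Ratios within a library were used to ask how miR-8-3p moved against other abundant arms, free of any scaling. Against bantam-3p, miR-8-3p stood at 0.122 and 0.125 counts per count in stage 1 and at 0.161 to 0.275 in stages 2 and 3. In stage 4 the ratio was 0.662 in replicate 1 and 1.11 in replicate 2. In the 6 later libraries it stayed between 0.729 and 0.835. Stage 4 replicate 2 was thus the only library with more miR-8-3p than bantam-3p. The mean log2 ratio rose from -2.46 ± 0.501 to -0.33 ± 0.0942 (SD, n = 6 each).

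Against miR-10-5p, which is encoded in the Antennapedia complex of Hox genes, the ratio was 0.0604 to 0.124 early. It was 0.472 and 1.00 in stage 4 and 0.999 to 1.50 late, so the arms ended at comparable levels. The mean log2 ratio went from -3.57 ± 0.436 to 0.28 ± 0.223.

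The ratio to miR-263a-5p, which protects sensory bristle progenitors from cell death, took another course. It was 0.583 and 0.587 in stage 1, 0.183 and 0.241 in stage 2 and 0.0601 and 0.123 in stage 3. It was then 0.570 and 1.20 in stage 4 and 1.81 and 1.82 in stage 6, and 0.815 in stage 7 replicate 2. Across stages 1 to 3 the libraries of each stage lay below those of the one before. The mean log2 ratio went from -2.19 ± 1.29 early to 0.44 ± 0.469 late.

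In each of the 3 ratios every late library exceeded every early one. The exact two-sided permutation test over 12 libraries gave p = 0.00216 for each, which is the smallest it allows, and 0.00216 after Benjamini-Hochberg adjustment over the 3. Libraries of a stage resemble each other, so they are not fully exchangeable and this p is a guide only. The 3 reference arms were also chosen with earlier results of these data known, so the p adds no independent support. On the TMM scale 38.8% of tested arms rose late without overlap of libraries. How many other arms would separate in these ratios was not counted, so the separation does not set miR-8-3p apart. The differences of means were 2.13, 3.85 and 2.63 on the log2 scale, and 2.12, 3.91 and 2.78 without stage 7 replicate 2.

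**Figure D4:**
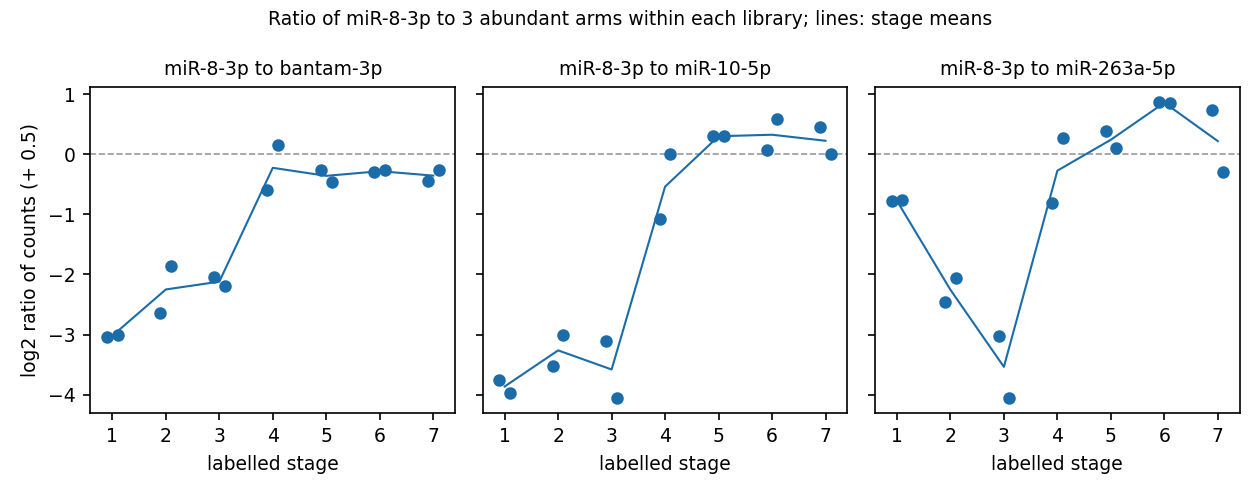
log2 ratio of miR-8-3p counts to bantam-3p, miR-10-5p and miR-263a-5p counts (0.5 added to each) in each library, by labelled stage. Lines join stage means and the dashed line marks equal counts. The ratio to bantam-3p is flat after stage 4 and the ratio to miR-263a-5p dips to stage 3 before it rises.

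The arm ratio asks whether guide and passenger kept their proportion. Over all libraries miR-8 had 42015 counts of the 3p arm and 1365 of the 5p arm, 30.8 to 1, so 5p made up 3.15% of miR-8 counts (95% exact binomial interval 2.98% to 3.32%). Among 63 hairpins with both arms listed and at least 100 counts in all, 32 were mainly 3p and 31 mainly 5p. With counts pooled over all stages, which weights each hairpin by the stages where it is abundant, miR-8 was in place 44 by 5p share. It was in place 18 of 32 in the early libraries alone (4.64%) and in place 40 of 54 in the late ones (2.67%). The hairpins next to it were miR-375 (7.26%) and miR-277 (3.77%) above, and bantam (2.74%) and miR-1 (1.57%) below. By share of the minor arm, whichever arm that was, 24 hairpins lay above miR-8 and 38 below in the pooled counts, with a median of 1.31%. Early alone 8 lay above and 23 below, and late alone 22 above and 31 below. miR-8 thus had a larger minor-arm share than the middle hairpin in each set, on counts alone.

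Few early counts limit the share before stage 4. The 5p share was 6.85% in stage 1 replicate 1 (interval 2.26% to 15.3%). In replicate 2 it was 0 of 55, which allows up to 5.45% at 3 counts (exact interval up to 6.49%). It was 7.19% and 4.98% in stage 2 and 4.26% and 2.13% in stage 3, where the lowest rests on 2 counts of 94. Each of these intervals overlaps the others.

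Later libraries gave firmer values. In stage 4 the share was 3.08% (interval 2.24% to 4.13%) in replicate 1 and 5.67% (5.11% to 6.28%) in replicate 2, which differ beyond counting error. In stage 5 it was 3.86% and 4.17%. In stage 6 it was 2.03% and 2.78%, and in stage 7 2.26% and 1.90% (interval 1.59% to 2.26%). Expressed as guide to passenger, the ratio was 16.6 in stage 4 replicate 2 and 51.6 in stage 7 replicate 2, the widest pair from stage 4 on.

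Between early and late libraries the mean 5p share was 4.23% ± 2.78 and 2.83% ± 0.967 (SD, n = 6 each). The difference of -1.40 percentage points did not pass the exact two-sided permutation test (p = 0.240, with 0.00216 the smallest possible), nor did that without stage 7 replicate 2 (-1.22 points, exact p = 0.338). It passed, as lower late, where libraries with under 100 miR-8 counts were left out (-2.64 points, exact p = 0.0238, the smallest 6 against 3 libraries allow). It also passed without stage 1 replicate 2, the library with no 5p count (-2.25 points, exact p = 0.0433). In edgeR's test of differential arm use over 37 hairpins, the 5p arm of miR-8 had -0.47 on the log2 scale relative to its hairpin (adjusted p = 1.00), and 3 hairpins passed.

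From stage 4 on, where counts are high, the 4 libraries of stages 4 and 5 held 5p shares of 3.08% to 5.67% and the 4 of stages 6 and 7 held 1.90% to 2.78%, with no overlap. The ranges without stage 4 replicate 1 and stage 7 replicate 2 were 3.86% to 5.67% and 2.03% to 2.78%. This split was chosen after the values were seen and carries no test. Hairpins that were well counted in all 8 of these libraries (at least 100 counts and at least 1 of the minor arm) were set beside it. There were 8, of which 5, miR-8 included, had 5p as the minor arm. Besides miR-8, the 5p share was lower without overlap in stages 6 and 7 for bantam (3.18% to 5.43% against 0.872% to 2.55%), for miR-11 (11.1% to 14.6% against 4.11% to 9.95%) and for miR-14 (29.2% to 52.7% against 4.66% to 22.3%). The fifth, miR-184, overlapped (0.0501% to 0.277% against 0.0754% to 0.108%), and so did all 3 hairpins with 3p as the minor arm. The miR-184 share rests on 1 to 9 counts of its 5p arm per library. That of miR-5, whose minor arm is 3p, rests on 2 to 28. With counts this low a fall could go unseen. Stage 7 replicate 2 was the lowest of the 8 libraries for bantam, miR-11, miR-14 and miR-8 alike. Stage 4 replicate 2 was the highest for bantam, miR-11 and miR-8. It was also the highest for miR-184 and for miR-1002, whose minor arm is 3p. The part of library differences in the fall of the miR-8 5p share was not tested.

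**Figure D5:**
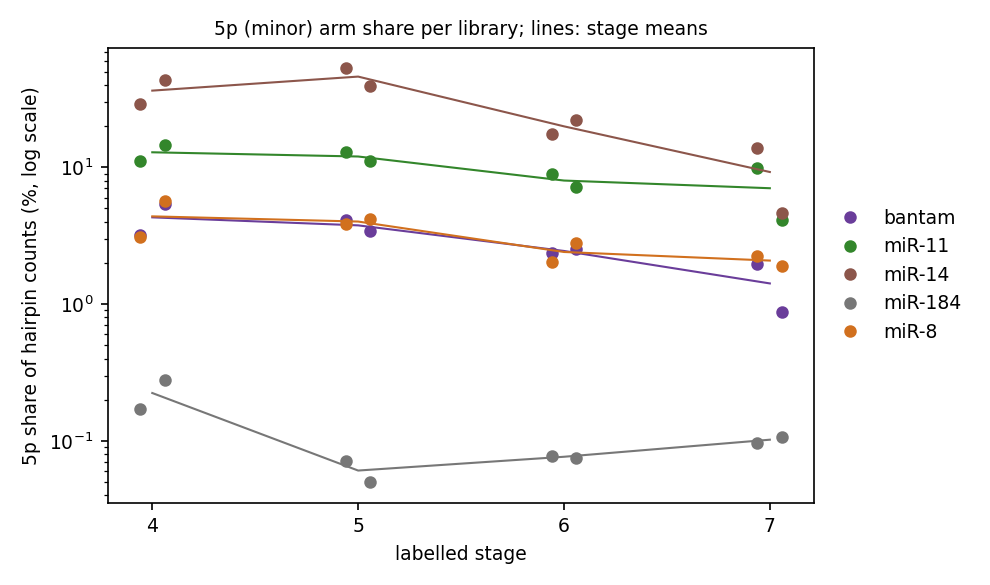
Share of the 5p (minor) arm in the counts of 5 hairpins in the libraries of stages 4 to 7 (log axis, in percent), with lines through stage means. Points of replicate 1 are set to the left of each stage and those of replicate 2 to the right. For miR-8 the share goes from 3.08% to 5.67% in stages 4 and 5 to 1.90% to 2.78% in stages 6 and 7, beside bantam, miR-11 and miR-14.

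The arms whose course over the 14 libraries was most like that of miR-8-3p were then named, with Pearson's r of log2 CPM as the measure among 84 other tested arms. They were miR-316-5p (r = 0.977), bantam-3p (0.960), miR-31a-5p (0.956), miR-87-5p (0.948) and miR-190-5p (0.944). The other arm of the hairpin, miR-8-5p, came in place 7 (0.931). At the opposite end were miR-311-3p (-0.973) of the maternal miR-310 cluster and miR-3-3p (-0.973), which shares its cluster with miR-286. The values are a description: libraries share their scaling and fall into an early and a late set, and the middle of the 84 values was 0.521. miR-87-5p had 132 counts in all, and its fitted change was 0 from stage 1 to 2 and from stage 2 to 3. Its log2 CPM in those stages is a floor set by the prior count of 2, so its likeness there is not a measured course. The nearest arm, miR-316-5p, had 410 counts in all. Its fitted change was 3.93 ± 2.57 (SE) from stage 1 to 2 and 0.39 ± 1.30 from stage 2 to 3. The early course of miR-316-5p is thus loosely measured too.

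miRNAs of related roles were listed to place miR-8 among them. Of 14 listed arms of growth and metabolism miRNAs 9 were tested, and late against early 5 rose, 2 fell and 2 did not pass, against 50.6% rising and 29.4% falling among all arms. The list's median log2 fold change was 0.86, equal to that of all arms, and below the 4.31 of miR-8-3p. One rise was that of miR-277-3p, a regulator of branched-chain amino acid breakdown. It went from 1 early count to 590 late ones, 241 times as many on the TMM scale (exact interval 43.1 to 9539, counting error only). The others were miR-14-5p (4.96 ± 0.573) and miR-14-3p (0.86 ± 0.243) of a hairpin that limits cell death and fat storage, and bantam-3p (2.19 ± 0.194) with bantam-5p (2.13 ± 0.401). The falls were miR-305-3p (-2.06 ± 0.305) and miR-305-5p (-2.38 ± 0.434). miR-33-5p, known for lipid metabolism (0.02 ± 0.307), and miR-9a-5p (-0.25 ± 0.214) did not pass. The counts depended on the setting. miR-14-3p, whose value is itself the median of the list and of all arms, did not pass in 11 of 23 alternatives. Its values there ran from 0.11 to 1.83, and it passed in the 15 with arms and factors kept. The list had 4 rises and 3 falls and a median of 0.30 without stage 4 replicate 1 and stage 7 replicate 2, but 5 and 2 and a median of 0.69 with arms and factors kept. With arms and factors kept, the counts were 5 and 2 without any 1 library too. Scaled by library size alone the list had 7 rises and 2 falls and a median of 1.83. miR-9a-5p passed in 12 of 23 alternatives, with values from -0.99 to 0.71, and in 0 of the 15 with arms and factors kept.

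In the step from stage 3 to stage 4, where 18.8% of arms rose and 16.5% fell, 4 of the 9 rose and 0 fell. They were miR-277-3p, miR-14-5p (3.35 ± 0.706), bantam-5p (1.97 ± 0.671) and bantam-3p (1.26 ± 0.327). miR-277-3p had 0 counts in stage 3 and 21 in stage 4. With the stage 3 total set to 3 counts, that is at least 3.12-fold higher on the TMM scale. The list's median was 0.23, as for all arms, also with miR-277-3p at its bound. Without stage 3 replicate 1, stage 3 replicate 2 or stage 4 replicate 2 the list had 2 rises in place of 4, with miR-14-5p among them each time. With arms of a mean count of at least 50, which left 6 of the list, 1 rose and 2 fell.

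Of 15 listed arms of epithelial and gut miRNAs 11 were tested, and late against early 7 rose, 3 fell and 1, miR-263a-3p (0.36 ± 0.694), did not pass, where 50.6% of all arms rose and 29.4% fell. The median was 1.72, against 0.86 for all arms. Without stage 4 replicate 1 and stage 7 replicate 2 there were 6 rises and 3 falls, or 7 and 3 with arms and factors kept. With arms and factors kept, miR-281-1-5p lost its call without stage 1 replicate 1, stage 2 replicate 1, stage 5 replicate 1, stage 6 replicate 2 or stage 7 replicate 1. miR-31a-5p (4.66 ± 0.280) and miR-263b-5p (4.58 ± 0.795) had rises as large as that of miR-8-3p. The early mean share of miR-263b-5p was only 0.00195% ± 0.00235 (SD), so the size of its rise rests on few counts. miR-281-3p (2.52 ± 0.682), miR-31b-5p (2.00 ± 0.378), miR-281-2-5p (1.81 ± 0.304), miR-263a-5p (1.72 ± 0.173) and miR-281-1-5p (1.05 ± 0.397) rose less. Besides the miR-305 arms, which are in each list, miR-275-3p fell (-4.60 ± 0.357).

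From stage 3 to stage 4, where 18.8% of all arms rose and 16.5% fell, 1 of these 11, miR-31a-5p, rose (4.75 ± 0.479, adjusted p = 4.94e-07), miR-275-3p fell (-1.49 ± 0.528) and 9 did not pass, with a median of -0.05 against 0.23 for all arms. Scaled by library size alone 3 rose and 0 fell (median 0.81), and with arms of a mean count of at least 50, which left 5 of the list, 1 rose and 2 fell (median -0.53). The fall of miR-275-3p did not pass in 14 of 23 alternatives, among them size factors of DESeq2 and the absence of a filter, and miR-263b-5p also passed without stage 4 replicate 1 and stage 7 replicate 2. Over all libraries miR-263b-5p had 24 counts in stage 4 and 2 in stage 3, a ratio of 5.35 on the TMM scale (exact interval 1.33 to 46.7). The step of miR-8-3p had miR-31a-5p beside it in this list, while miR-263a-5p, close to miR-8-3p in late abundance, had -0.05 ± 0.290 in the same step. The value of miR-263a-5p ran from -0.53 to 0.81 over 23 alternatives and passed in 2 of them, library size alone (0.81) and DESeq2.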

How the data were processed

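The authors deposited raw read counts per mature miRNA arm; totals differed between libraries. TRIzol-extracted RNA (1 ng) was made into libraries by a modified TruSeq small RNA protocol with 15 PCR cycles, per the labels' protocols. Bowtie, HTSeq and the build dm6 are named, per the submitters' processing notes. The handling of reads that match several loci is not given in the sources used here. Columns were matched to libraries by title, and replicates were numbered in accession order, so none were paired.

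In R 4.3.3, edgeR 4.0.16 was fitted to all 14 libraries (filterByExpr, TMM, 1 coefficient per stage, 7 residual degrees of freedom, Benjamini-Hochberg over 85 arms). Shares have exact binomial intervals, a count of 0 allows 3 counts, and both cover counting error only, since reads carry no molecular identifiers. log2 CPM used a prior count of 2. DESeq2 1.42.0, other scalings and filters, thinning, and removal of libraries were alternatives. Named arms are both miR-8 arms, the 5 most and 2 least alike, 3 reference arms, rank and arm-share neighbours, and list members. In the late arm-share comparison, miR-5, miR-11, miR-184 and miR-1002 were chosen after their values were seen. The arms in the last observations were too. Members, lists and the 3 reference arms of the ratios were chosen with earlier results of these data known. The code was tested on simulated data. Figures used matplotlib 3.10.9 in Python 3.11.15. Hairpin positions came from the Ensembl annotation of dm6.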

Additional observations from a re-analysis of the deposited data

How the results depend on the processing

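Of 742 values from alternatives for 22 results, 724 kept the direction and side of the threshold, among them all of the test among stages, late against early, the stage 3 to 4 step and the 3 ratios. The stage 1 to 2 step of miR-8-3p passed with miR-286-3p removed (1.11), library size alone (1.24), no filter (1.20), the 2 stages alone (0.96) and, with arms and factors kept, without stage 4 replicate 1 and stage 7 replicate 2 (1.00). It ran from 0.65 to 1.04 without 1 library, passing without stage 4 replicate 2 or stage 7 replicate 1 (0.81 to 1.16, none passing, with arms and factors kept). The 5p share passed with at least 100 miR-8 counts (-2.64 points), and ran from -2.25 to -0.81 without 1 library. miR-8-5p from stage 1 to 7 ran from 2.15 to 9.72 without 1 library, the lowest not passing. The highest had no stage 1 count of this arm, so its size is not a measured fold change. Steps that did not pass changed sign: miR-8-3p from stage 6 to 7 without a filter (0.052), and from stage 2 to 3 between -1.44 and 0.13 without 1 library (-0.79 to 0.23 with arms and factors kept); miR-8-5p from stage 4 to 5 without stage 4 replicate 1 and stage 7 replicate 2 (-0.30; -0.29 to 1.64 without 1 library; with arms and factors kept -0.28, and -0.27 to 1.63) and from stage 6 to 7 (-0.81 to 0.012 without 1 library). The cause was not tested. Where 1 library was left out, the spread of its partner was taken from the other stages, and without stage 4 replicate 1 and stage 7 replicate 2 edgeR estimated a common spread for all arms unless arms and factors were kept. No paired analysis was possible because the labels carry no replicate numbers. With a mean count of at least 50, which leaves 39 arms, arms past the threshold numbered 33 against 69 among stages, 34 against 68 late against early, 29 against 65 from stage 1 to 7, 9 against 15 from stage 1 to 2 and 7 against 12 from stage 4 to 5. The stage 1 to 2 step had 34 with the 2 stages alone and 4, 8 and 7 without stage 1 replicate 1, stage 1 replicate 2 and stage 2 replicate 1. The stage 3 to 4 step had 16 against 30 without stage 4 replicate 2 (19 with arms and factors kept, as without stage 3 replicate 1), and the stage 4 to 5 step 2 and 1 without stage 4 replicate 1 and stage 5 replicate 1. Steps with 0 had at most 2 under other settings, except 7 from stage 2 to 3 without stage 4 replicate 1 and stage 7 replicate 2 (4 with arms and factors kept). Depth limits miR-8-5p before stage 4, where no library had over 10 counts.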

Other observations

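The course of miR-8-5p was most like that of its partner arm miR-8-3p (r = 0.931 over the 14 libraries), followed by miR-316-5p (0.908), miR-31a-5p (0.902), miR-276a-3p (0.894) and miR-14-5p (0.890). miR-316-5p and miR-31a-5p were also among the arms most like miR-8-3p. The early course of miR-316-5p is loosely measured, as stated above. These values carry no test.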
